A study of Homo sapiens with 12 samples.

Results

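The replication-dependent histone genes are the clustered genes that supply most of the histone protein made in S phase. They were taken here as every row of the count files whose symbol belonged to the H1-1 to H1-6 series or to the H2AC, H2BC, H3C or H4C series, which gave 66 genes of the 61552 rows in all. They comprised 6 genes of linker histone H1, 16 of H2A, 17 of H2B, 13 of H3 and 14 of H4. On the deposited loci 55 lay on chromosome 6 and 11 on chromosome 1. The 12 RNA-seq libraries came from a series on the interferon regulatory factor IRF3 and replication stress, and were made from 2 established human lines of triple-negative breast cancer, HCC38 and MDA-MB-231, both with the genotype given as WT. RPMI-1640 was the medium of HCC38 and DMEM with low glucose that of MDA-MB-231, which means that an effect of line and one of medium cannot be told apart. Fetal calf serum and penicillin/streptomycin were in both media. Each line gave 3 untreated libraries and 3 libraries from cells given interferon-β at 400 IU/mL for 48 h. The replicates are called biological, but nothing says that they came from separate cultures, so the p-values measure the spread between these libraries.

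Each nucleosome wraps DNA around an octamer of H2A, H2B, H3 and H4, and H1 binds the linker DNA between nucleosomes. The clustered genes are transcribed mainly while DNA is copied, under NPAT and cyclin E-CDK2 at histone locus bodies, and their mRNAs have no introns and usually end in a conserved stem-loop, bound by SLBP, in place of a poly(A) tail. Some members are also known to make a spliced or polyadenylated form, among them H1-2, H2AC6, H2BC5, H2BC12 and H2BC21. The kit was a directional one, but whether the RNA was selected by poly(A) or depleted of ribosomal RNA is not given in the sources used here, and that choice bears on how much stem-loop mRNA enters a library.

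The stem-loop is shown because it is the feature that sets this mRNA class apart. It was searched in the transcripts of GENCODE release 29 as a 6-base stem, a 4-base loop and the complementary stem, and was found in 25 of the 62 members that have a transcript there. The search took only stems of GG followed by pyrimidines, with no mismatch, and loops without G, so that other forms would be missed. The loop is in capitals.
H2AC6: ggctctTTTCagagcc
H2BC4: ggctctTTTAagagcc
H4C8: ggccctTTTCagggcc
H4C14: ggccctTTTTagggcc
The H2A and H2B members matched shared 1 stem, with the loop TTTC or TTTA. The H4 members matched carried another stem, with the loop TTTC or TTTT.

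Promoters of H2B members are shown because H2B genes made up most of the interferon calls described further on. The windows are the 150 bases before the RefSeq start (GRCh38.p14), 5′ to 3′ in the direction of transcription, and these 5 starts equal the deposited ones. Capitals mark the octamer ATTTGCAT, the TATA element TATAAA and the CCAAT box, each searched on both strands. All 5 genes lie on the minus strand, in the order H2BC12 at chr6:27146856-27147005, H2BC11 at chr6:27132796-27132945, H2BC4 at chr6:26123927-26124076, H2BC8 at chr6:26216689-26216838 and H1-2 at chr6:26056471-26056620.
H2BC12: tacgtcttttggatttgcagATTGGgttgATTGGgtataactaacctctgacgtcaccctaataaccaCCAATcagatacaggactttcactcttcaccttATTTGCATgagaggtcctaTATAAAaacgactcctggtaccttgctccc
H2BC11: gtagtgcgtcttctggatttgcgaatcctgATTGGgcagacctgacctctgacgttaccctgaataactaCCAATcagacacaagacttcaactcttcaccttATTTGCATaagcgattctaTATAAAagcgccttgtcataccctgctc
H2BC4: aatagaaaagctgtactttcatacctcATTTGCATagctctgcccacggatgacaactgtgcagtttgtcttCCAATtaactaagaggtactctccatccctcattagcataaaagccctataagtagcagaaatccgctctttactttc
H2BC8: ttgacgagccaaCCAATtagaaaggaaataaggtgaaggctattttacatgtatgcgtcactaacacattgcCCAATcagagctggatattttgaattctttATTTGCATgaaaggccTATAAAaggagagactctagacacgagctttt
H1-2: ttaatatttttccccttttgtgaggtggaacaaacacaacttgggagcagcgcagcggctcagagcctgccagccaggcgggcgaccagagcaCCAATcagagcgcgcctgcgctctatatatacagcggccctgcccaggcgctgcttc
In H2BC12, H2BC11 and H2BC8 the octamer began 49, 47 and 48 bases before the start, with the TATA element 30, 28 and 32 bases before it. H2BC4 held the octamer 123 bases before the start, and H1-2 held a CCAAT box only. H2BC8 had the same arrangement as H2BC12, and the levels given below put H2BC8 at 0 counts in untreated MDA-MB-231 and H2BC12 at the highest level of any member there.

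Over windows from 250 bases before to 50 after the start, the octamer stood in 14 of 17 H2B promoters and 11 of 15 H2A promoters, and in none of the H1, H3 or H4 promoters matched. Over the 35116 promoters of the RefSeq table its share was 1.77%. TATAAA stood in 42 of the 61 members matched, against 11.5% of all promoters. CCAAT stood in every H1, H2A, H2B and H3 promoter matched and in 3 of 12 H4 promoters, against 34.6% of all. The core of the interferon-stimulated response element, searched as GAAA, any 2 bases and GAAA again on both strands, stood in 5 of 61 members, or 8.20%, against 3.57% of all promoters. It stood in 2 of the 10 members later called with interferon-β. The octamer stood in 6 of the 7 H2B members called with interferon-β and in 8 of the 10 that were not. A match describes the letters of a window and not a bound site.

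Member levels were about an order of magnitude apart between the lines. The 66 genes took 0.147 to 0.154% of all counts in untreated HCC38 and 0.00858 to 0.0110% in untreated MDA-MB-231. Their summed level, in CPM (read counts scaled to library size with TMM factors), was 1508, 1467 and 1502 in the untreated HCC38 libraries and 107, 113 and 90.7 in the untreated MDA-MB-231 libraries, a ratio of means of 14.4. With interferon-β it was 2256, 2324 and 2054 in HCC38 and 312, 242 and 245 in MDA-MB-231. In each line all 3 treated sums lay above all 3 untreated sums, and every HCC38 sum lay above every MDA-MB-231 sum.

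**Figure D1:**
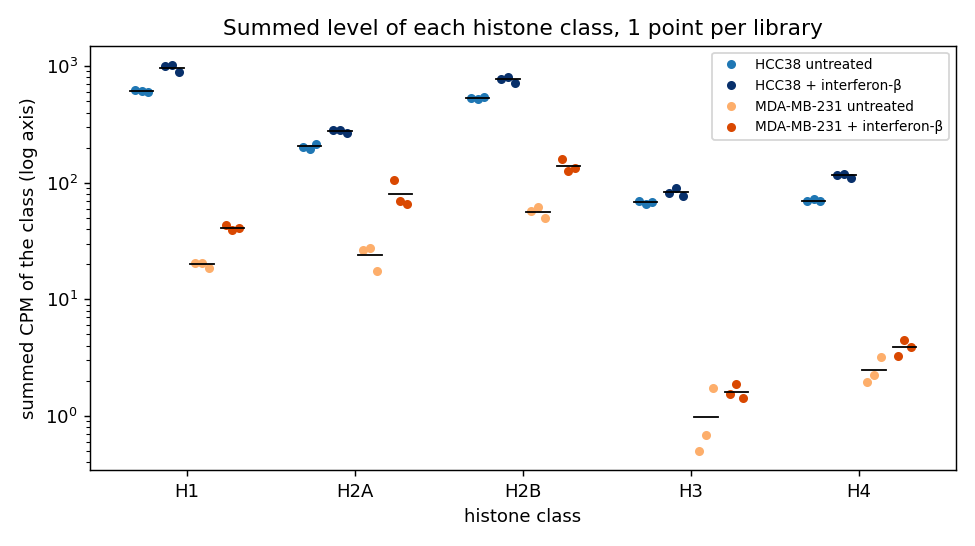
Summed CPM of each histone class (log axis) in the 12 libraries, with 1 point per library and a bar at the mean of each group of 3. Untreated HCC38 lies above untreated MDA-MB-231 in all 5 classes, with ratios of means from 8.57 for H2A to 70.2 for H3.

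The gap between the lines differed by class. The ratio of untreated HCC38 to untreated MDA-MB-231 was 8.57 for H2A, 9.54 for H2B, 28.5 for H4, 30.8 for H1 and 70.2 for H3. Summed H3 was 68.0 ± 1.75 CPM (SD, n = 3) in HCC38 and 0.969 ± 0.658 CPM in MDA-MB-231, so that the H3 sum in MDA-MB-231 rested on few reads. A single gene, H1-2, gave 38.5 to 42.7% of the members' counts in the HCC38 libraries and 13.8 to 20.2% in the MDA-MB-231 libraries.

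Per length, on the deposited FPKM scale, H1-2 and H2BC12 led both lines among members without a near-identical copy, in opposite order. In untreated HCC38 H1-2 stood at 1520 ± 65.9 FPKM (SD, n = 3) and H2BC12 at 935 ± 54.8. In untreated MDA-MB-231 H2BC12 stood at 116 ± 7.19 FPKM and H1-2 at 51.5 ± 8.52. The 3 libraries of each group did not overlap between these genes in either line. Next in untreated HCC38 came H2AC6 at 229 ± 30.7 FPKM, H2BC5 at 189 ± 12.1, H2BC11 at 111 ± 9.82, H2BC4 at 104 ± 6.09 and H2BC8 at 93.8 ± 9.47. The libraries of H2AC6 and H2BC5 overlapped, as did those of H2BC11 and H2BC4 and those of H2BC4 and H2BC8.

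H2A and H2B genes often lie head to head, with a shared stretch of DNA between their starts. There were 10 such pairs among the members, with 169 to 286 bases between the deposited gene ends. Partners were often at unlike levels in untreated HCC38. H2AC13 stood at 57.9 ± 4.36 FPKM and its partner H2BC13 at 1.27 ± 0.791. H2BC21 stood at 26.2 ± 1.05 FPKM and H2AC20 at 0.844 ± 1.02. H2AC6 and H2BC4, at 229 and 104 FPKM, were closer. Both members of the pair H2AC1 and H2BC1, known for expression in testis, had 0 counts in all 12 libraries.

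Values of some members are uncertain because close copies or overlapping models share reads. H2AC18 was deposited at 337 ± 40.7 FPKM and H2AC19 at 485 ± 68.9 FPKM in untreated HCC38, yet these genes held only 42 and 31 counts over those 3 libraries. H4C14 and H4C15 showed the same contrast, with H4C15 at 272 ± 14.6 FPKM and 27 counts. Each pair is nearly identical in sequence, and the counts and FPKM come from different tools. H3C14 and H3C15 had at most 2 counts in any group. The locus of H3C12 overlaps that of H2AC17, and H2AC7 lies within an unnamed gene model, ENSG00000282988, that held 3118 counts over the HCC38 libraries against 20 for H2AC7.

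Of the 66 members 45 passed the filter on low counts and were tested. Another 19 had at most 86 counts over all 12 libraries, and 2 had none. Since a gene expressed only in HCC38 passed through HCC38, the counts in the following comparison of untreated lines describe the tested members and not all members. Of all 66, the mean CPM was lower in untreated MDA-MB-231 for 60 and higher for 1, and for 51 all 3 MDA-MB-231 libraries lay below all 3 HCC38 libraries. None lay wholly above. These counts were not made over all rows, so they describe the members alone.

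By edgeR's quasi-likelihood test with Benjamini-Hochberg adjustment over 18121 genes, 43 of the 45 tested members were called lower in untreated MDA-MB-231 at an adjusted p under 0.05 and 1 was called higher. Of all genes tested 39.0% were called lower and 36.4% higher. The median log2 fold change was -4.60 over the tested members and -0.04 over all genes. By non-overlapping CPM ranges 43 members were lower and none higher, where 40.6% of all genes were lower and 37.4% higher. The calls fell on 5 of 5 tested H1 genes, 8 of 9 H2A, 13 of 13 H2B, 9 of 9 H3 and 8 of 9 H4. In bulk RNA, fewer cells that express a gene and less RNA per cell cannot be told apart.

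The largest differences were of genes without a read in untreated MDA-MB-231. H2BC8, an H2B gene at chr6:26216200-26216688 on the deposited GRCh38.p13 loci, stood at 22.8, 26.7 and 24.5 CPM in untreated HCC38 and at 0 in all 3 untreated MDA-MB-231 libraries. Set against 3 counts over the group, it was at least 845-fold lower in MDA-MB-231. The 3 counts were taken as an upper limit for counting error at 0 counts and are not a hard bound. H1-3, a linker histone, stood at 15.7, 14.7 and 14.2 CPM against 0, or at least 510-fold lower. H3C8 stood at 14.6, 11.2 and 14.1 CPM against 0, or at least 456-fold lower. These 3 genes lie within 1 stretch of chromosome 6, with other members between them, and none of their HCC38 libraries came near the MDA-MB-231 level.

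That stretch ran from H4C4 to H2BC10 at chr6:26188710-26273412, 84703 bases, and held 15 consecutive members. These 15 genes had 16790 counts over the 6 HCC38 libraries and 1 count over the 6 MDA-MB-231 libraries, a read of H2BC8 in treated replicate 1. The 6 other rows inside it, histone pseudogenes and unnamed models, had 3900 and 0 counts. On both sides of it the members were read in both lines. H2BC6, which ends at 26184655, had 1524 counts in HCC38 and 392 in MDA-MB-231, and H4C8, which starts at 26277609, had 13224 and 403. The tested genes of the stretch were 13 in number, with 10 members. Along the chromosomes they formed the run of most consecutive tested genes with at most 1 count each in MDA-MB-231, ahead of runs of 9. Such genes passed the filter through HCC38 only. In bases other runs were longer, among them 1 of 9 tested genes at chr15:20729747-22360918. A shorter run at chr6:27865317-27873534 held H2AC16, H1-5, H3C11 and H4C13, with 1035 counts in HCC38 and 0 in MDA-MB-231. H1-5 made up 901 of those counts. Copy number and methylation of the DNA there were not measured.

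**Figure D2:**
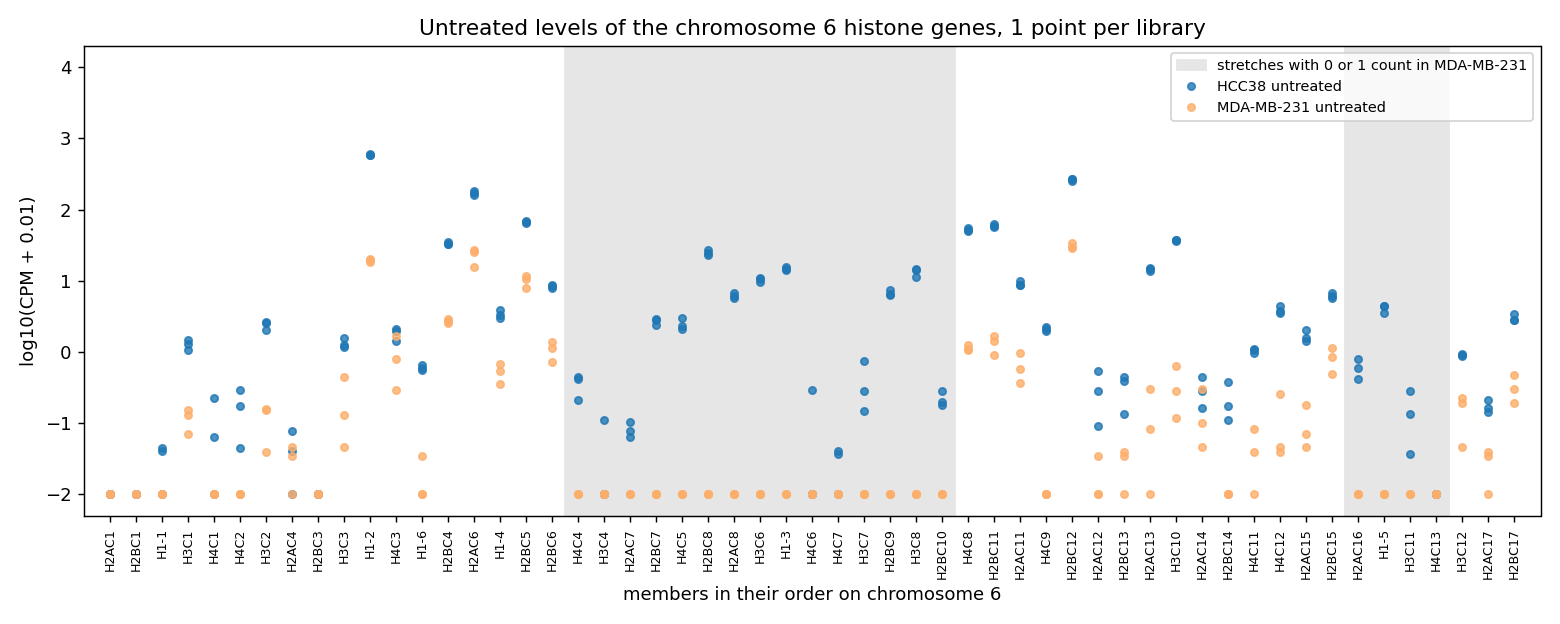
log10(CPM + 0.01) of the 55 chromosome 6 members in their order along the chromosome, in the 3 untreated libraries of each line. Shaded are the 15-gene and 4-gene stretches, where MDA-MB-231 sits at the floor of the axis while HCC38 reaches 24.7 CPM for H2BC8, and both lines have reads on each side.

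Among 14079 genes at 1 CPM or more in untreated HCC38, 2.76% had 0 counts in all 6 MDA-MB-231 libraries. Of the 35 members at that level 8 had none. Over the whole list 21 members had counts in HCC38 and none in MDA-MB-231, a count that was not made over all rows.

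The H1 genes showed the range within a class. H1-4 stood at 3.85, 3.34 and 3.02 CPM in untreated HCC38 and at 0.536, 0.656 and 0.339 in MDA-MB-231, a log2 fold change of -2.75 ± 0.25 (SE, adjusted p = 1.229e-07). H1-5 stood at 4.43, 3.53 and 4.44 CPM against 0. H1-6, known from testis, stood at 0.591 ± 0.0523 CPM in HCC38 and had 1 count over the MDA-MB-231 libraries. H1-1 had 8 counts over the HCC38 libraries and 0 in MDA-MB-231, and was not tested. H1-2 was the H1 gene kept at the highest level in MDA-MB-231, at 20.1, 19.7 and 18.3 CPM, against 604, 588 and 579 in HCC38.

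Of the 2 members not called lower, H4C3 stood at 1.94, 1.43 and 2.07 CPM in untreated HCC38 and at 0.286, 0.775 and 1.65 in MDA-MB-231, which overlap (log2 fold change -0.95 ± 0.46, adjusted p = 0.0738). H2AC20 was the member called higher. It stood at 0.0308, 0.216 and 0 CPM in HCC38 and at 0.357, 0.209 and 0.388 in MDA-MB-231, which also overlap. Its log2 fold change of 1.80 ± 0.78 had an adjusted p of 0.0488, and the call was lost when any 1 of 8 libraries was left out: untreated HCC38 replicate 1 or 3, treated HCC38 replicate 2, untreated MDA-MB-231 replicate 1 or 3, or any treated MDA-MB-231 library. Over all 12 such fits the log2 fold change lay between 1.30 and 4.02. It rested on 9 counts in HCC38 and 33 in MDA-MB-231.

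In HCC38 interferon-β raised 5 of the 45 tested members and lowered none, where 2.39% of all genes were called higher and 1.25% lower. The 5 were H1-2 (chr6:26055740-26056470), the H2B genes H2BC12 (chr6:27146361-27146855), H2BC4 (chr6:26114873-26123926) and H2BC11 (chr6:27125897-27132795), and H4C8 (chr6:26277609-26285638). No tested H2A or H3 gene was called in this fit over all 12 libraries. The median log2 fold change was 0.36 over the tested members and -0.00 over all genes, and 36 of the 45 estimates were above 0. At an unadjusted p under 0.05 there were 16 higher and 0 lower.

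H1-2, which carries the largest share of histone reads in this line, rose from 604, 588 and 579 CPM to 963, 986 and 853 with interferon-β (log2 fold change 0.66 ± 0.08 SE, adjusted p = 8.786e-05). H2BC12 rose from 271, 255 and 272 CPM to 411, 429 and 373 (0.61 ± 0.08, adjusted p = 0.000328). For both, every treated library lay above every untreated one, with treated replicate 3 the lowest of the treated. H4C8, an H4 gene that borders the stretch without reads in the other line, rose from 50.6, 54.2 and 51.9 CPM to 94.8, 97.2 and 89.8 (0.85 ± 0.11, adjusted p = 0.000435). H2BC4 rose from 35.6, 33.0 and 33.1 CPM to 61.9, 58.2 and 54.7 (0.78 ± 0.12, adjusted p = 0.00162). H4C8 and H2BC4 had the largest fold changes of the 5, again without overlap. H2BC11 rose from 56.1, 59.4 and 62.3 CPM to 78.8, 83.8 and 79.4 (0.45 ± 0.11, adjusted p = 0.0376). Its call was lost when any 1 of the 6 HCC38 libraries was left out, with adjusted p up to 0.178.

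Members below the threshold included several with separate groups. By CPM ranges 22 of the 45 did not overlap upwards and 1 downwards, where 13.4% and 13.6% of all genes did. H1-3 stood at 15.7, 14.7 and 14.2 CPM untreated and 22.6, 21.6 and 19.4 with interferon-β (0.51 ± 0.13, adjusted p = 0.0550). H2AC6 stood at 169, 163 and 182 CPM against 241, 239 and 225 (0.46 ± 0.18, adjusted p = 0.217). H3C10, the most abundant H3 gene by CPM, stood at 36.1, 37.1 and 37.2 against 44.3, 49.5 and 47.6 (0.36 ± 0.18, adjusted p = 0.343). H2BC6 showed no such shift, at 7.97, 8.30 and 8.72 CPM against 6.90, 9.20 and 8.32 (-0.03 ± 0.21, adjusted p = 0.975). Untreated replicate 3 of MDA-MB-231, a library of the other line, enters the shared estimate of spread. Without it 8 members were called in HCC38, with no share of all genes given for that fit. These non-calls depended on the fit. With a term for the 2 sets of MDA-MB-231 libraries described below, 14 members were called in HCC38, where 5.81% of all genes were called higher, and with HCC38 alone 17 of 44 tested were, where 6.57% were. H2AC6 was called in both fits (adjusted p = 4.20e-05 and 0.000119), as were H3C10 (0.0454 and 0.00448) and H1-3 (0.00556 and 0.00190), with estimates close to those above.

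In MDA-MB-231 interferon-β raised 10 of the 45 tested members and lowered none, where 6.46% of all genes were called higher and 6.08% lower. The 10 included all 5 called in HCC38, and added H2AC6 and the H2B genes H2BC5 (chr6:26158122-26171349), H2BC6 (chr6:26172059-26184655), H2BC21 (chr1:149884459-149886682) and H2BC18 (chr1:149782689-149812373). By class they were 7 of 13 tested H2B genes, 1 of 5 H1, 1 of 9 H2A, 0 of 9 H3 and 1 of 9 H4. Of the 45, 11 had no read in this line, so 34 could show a response, and 27 of these had an estimate above 0. The median log2 fold change over the 45 was 0.76, against 0.00 over all genes. At an unadjusted p under 0.05 there were 15 higher and 1 lower, and by CPM ranges 15 did not overlap upwards and 0 downwards, where 13.8% and 13.2% of all genes did.

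H2AC6, an H2A gene at chr6:26124145-26139116, rose from 25.6, 26.8 and 15.5 CPM to 101, 66.5 and 64.0 (1.78 ± 0.19 SE, adjusted p = 2.483e-05). H2BC12 rose from 28.9, 33.4 and 29.9 CPM to 73.4, 78.3 and 79.1 (1.32 ± 0.08, adjusted p = 4.509e-08). H1-2 rose from 20.1, 19.7 and 18.3 CPM to 43.1, 39.3 and 40.4 (1.08 ± 0.08, adjusted p = 3.776e-07). In these 3 genes every treated library lay above every untreated one, and the untreated libraries of H1-2 were the tightest. H2BC5 rose from 10.6, 11.8 and 7.93 CPM to 33.1, 22.8 and 24.0 (1.40 ± 0.15, adjusted p = 2.269e-05). H2BC4, the head-to-head partner of H2AC6, rose from 2.86, 2.50 and 2.71 CPM to 8.85, 5.86 and 6.43 (1.39 ± 0.15, adjusted p = 2.212e-05). Treated replicate 1 was the highest of the treated libraries for H2AC6, H2BC5 and H2BC4, and no groups overlapped.

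Members at a low level were among the calls. H4C8 rose from 1.25, 1.10 and 1.04 CPM to 2.06, 3.50 and 2.82 (1.30 ± 0.18, adjusted p = 0.000212). H2BC11 rose from 1.39, 0.895 and 1.67 CPM to 2.73, 2.53 and 2.59 (0.97 ± 0.17, adjusted p = 0.00161). H2BC6 rose from 1.14, 1.37 and 0.703 CPM to 3.36, 1.89 and 2.82 (1.35 ± 0.26, adjusted p = 0.00308). None of the 3 had overlapping groups, although each stayed far under its level in untreated HCC38. On chromosome 1, H2BC21 rose from 10.1, 10.7 and 4.94 CPM to 34.1, 12.6 and 15.2 (1.28 ± 0.32, adjusted p = 0.0170). H2BC18 rose from 0.536, 0.567 and 0.364 CPM to 1.48, 0.707 and 1.12 (1.20 ± 0.31, adjusted p = 0.0212). For H2BC21 treated replicate 1 stood far above the other treated libraries, and untreated replicate 3 far below the other untreated ones. In a fit of the MDA-MB-231 libraries alone, with 18 members tested, 6 members were called, where 3.62% of all genes were called higher, and H2BC11 (adjusted p = 0.0705), H2BC6 (0.0508), H2BC21 (0.113) and H2BC18 (0.107) lost their calls. In the fit over all libraries the call of H2BC18 was lost without treated replicate 1, treated replicate 3 or untreated replicate 3, with adjusted p up to 0.0684.

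**Figure D3:**
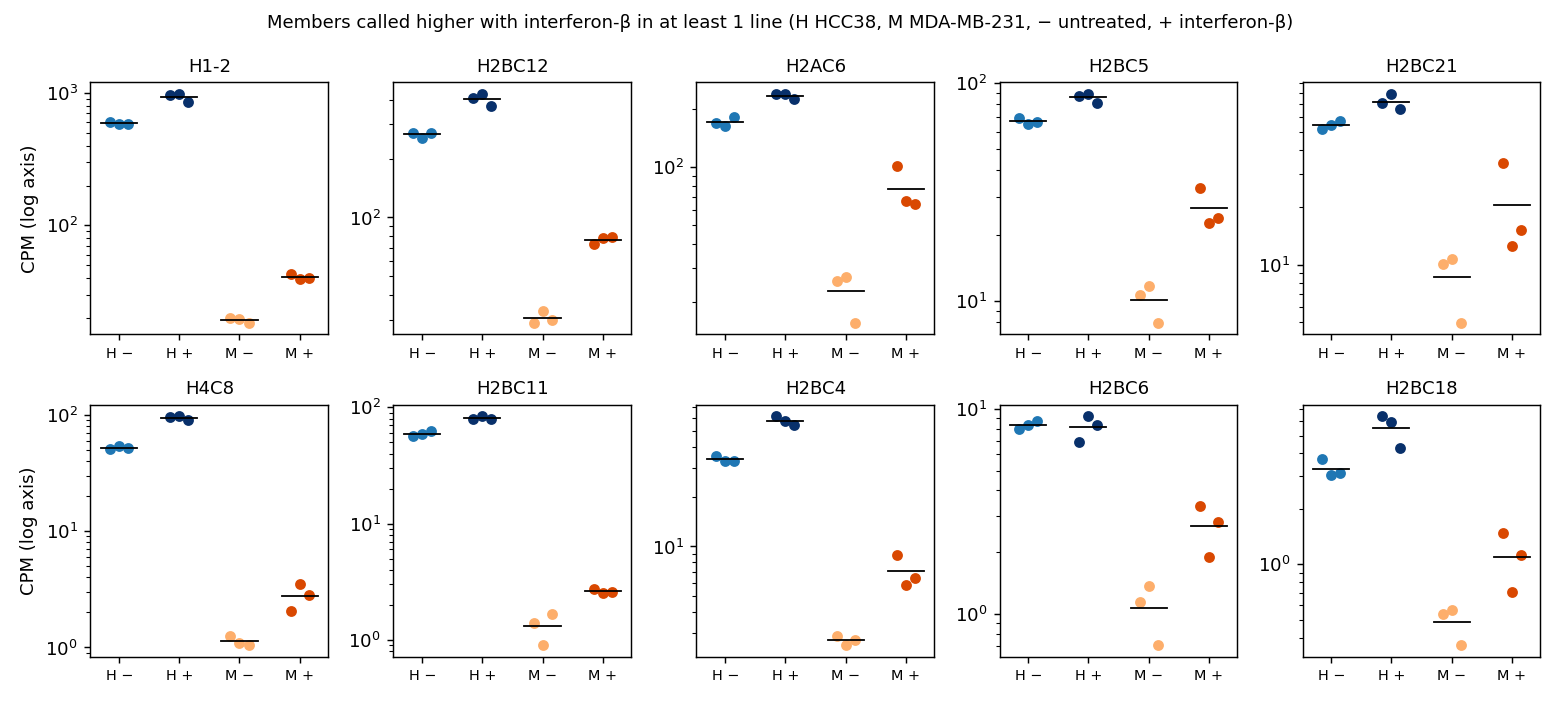
CPM (log axes) of the 10 members called higher with interferon-β in at least 1 line, with 1 point per library, a bar at the mean of 3, H for HCC38, M for MDA-MB-231, and minus or plus for interferon-β. In MDA-MB-231 the treated points of all 10 genes lie above the untreated ones, and H2BC6 in HCC38 shows overlapping groups at 6.90 to 9.20 CPM.

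The MDA-MB-231 libraries fell into 2 sets by the number in their deposited names, 1 or 2 (untreated replicates 1 and 2, treated replicate 1) and 4 or 5 (untreated replicate 3, treated replicates 2 and 3). What the numbers stand for is not stated. A fit with each set as groups of its own leaves 1 treated library in the first set and 1 untreated library in the second. That lone library was assumed to vary like the other groups, whose spread the p-values rest on. In the first, 13 members were called higher and 0 lower, where 3.93% of all genes were called higher and 2.56% lower. In the second, 10 were called higher and 1 lower, where 9.96% were called higher and 10.5% lower. The median log2 fold change of the 45 was 0.91 in the first set and 0 in the second, against 0.76 over both. The median difference from the HCC38 response was 0.61 and -0.17, against 0.38 over both. All these medians include the 11 members without a read in MDA-MB-231. Their response there is 0 by construction, and their difference is the HCC38 response with its sign reversed. The medians thus do not describe the members that were read. H2BC21, with the largest SE of the 10 called members over both sets, had log2 fold changes of 1.71 and 1.50 within the sets. H2AC6 gave 1.95 and 2.07, H2BC12 1.23 and 1.40, H1-2 1.11 and 1.12, and H4C8 0.81 and 1.58. The H3C10 estimates were 1.82 and 0.41. Over both sets H3C10 gave 1.11 ± 0.38 (adjusted p = 0.0710), and it was called at 2.00 without untreated replicate 3.

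The difference of the responses, MDA-MB-231 minus HCC38, was tested directly because a call in 1 line alone does not show one. It was called positive for 5 of 45 tested members and negative for none, where 1.99% of all genes were positive and 1.52% negative. H2BC6 differed by 1.38 ± 0.33 (log2 scale, adjusted p = 0.0345), H2AC6 by 1.32 ± 0.26 (adjusted p = 0.0126) and H2BC5 by 1.04 ± 0.20 (adjusted p = 0.0124). H2BC12 differed by 0.72 ± 0.11 (adjusted p = 0.00258) and H1-2 by 0.42 ± 0.11 (adjusted p = 0.0490). The rises of these 5 were larger in MDA-MB-231, whose untreated level was lower by 2.73 to 4.93 on the log2 scale, so that treated MDA-MB-231 stayed below untreated HCC38 in every library. The difference and the contrast of the untreated lines share the untreated libraries. The H1-2 difference remained called in 1 of the 12 fits that each left out 1 library, the one without treated HCC38 replicate 2, with adjusted p up to 0.131. That of H2BC6 remained called in 5 of 12, with adjusted p up to 0.0981, and was lost without treated HCC38 replicate 1 or 3, any untreated HCC38 library, treated MDA-MB-231 replicate 3 or untreated MDA-MB-231 replicate 1. H2BC4, H4C8 and H2BC11, called in both lines, had differences of 0.61 ± 0.19, 0.46 ± 0.21 and 0.52 ± 0.20 that were not called (adjusted p = 0.0997, 0.258 and 0.178). With a term for the MDA-MB-231 sets 7 differences were called, where 5.77% of all genes were positive, and these included H2BC4 (0.69, adjusted p = 0.00752) and H2BC21 (1.21, adjusted p = 5.50e-06).

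**Figure D4:**
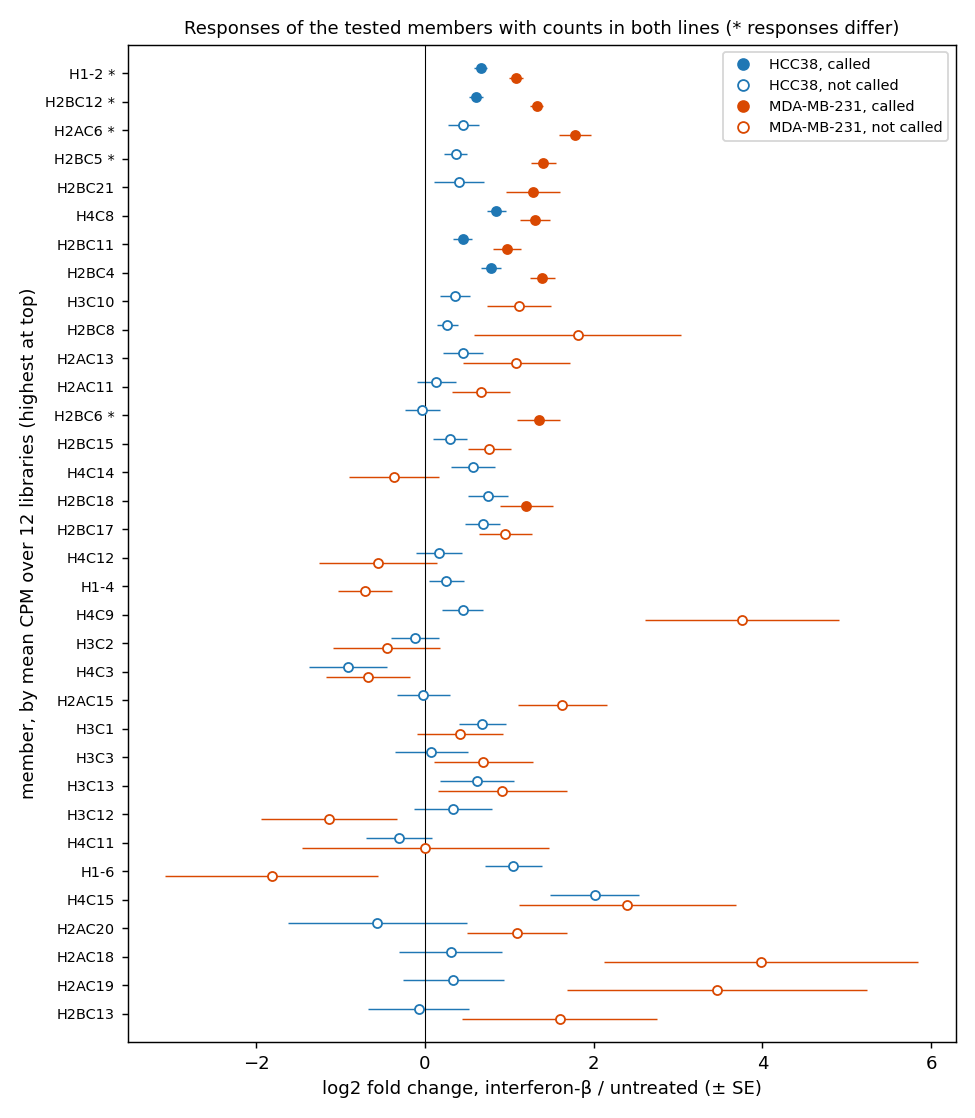
log2 fold change (± SE) with interferon-β in HCC38 and MDA-MB-231 for the 34 tested members with counts in both lines, from the highest mean CPM at the top. Filled points were called, stars mark the 5 members whose responses differ, and the abundant members at the top lie to the right of 0 in both lines, while rare members near the bottom have wide errors.

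Members with a long deposited locus held most of the calls in MDA-MB-231. A locus over 1000 bases, longer than the intronless histone gene, was deposited for 14 members, all tested, of which 8 were called in MDA-MB-231 and 3 in HCC38. Of the other 52, with 31 tested, 2 were called in each line. Of all genes 6.46% were called higher in MDA-MB-231 and 2.39% in HCC38. Members without a read in MDA-MB-231 could not be called there. Among those with a count in that line, 8 of 13 long and 2 of 21 short loci were called in it. Among members read in MDA-MB-231 the median log2 fold change there was 1.28 for 13 long loci and 0.95 for 21 short ones, and in HCC38 it was 0.45 and 0.26 for the same genes. Which transcript form the reads came from was not resolved by gene counts.

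The 5 members with a known polyadenylated form, H1-2, H2AC6, H2BC5, H2BC12 and H2BC21, were all called higher with interferon-β in MDA-MB-231, and 2 of them in HCC38. Of the other 40 tested members 5 were called in MDA-MB-231 and 3 in HCC38, where 6.46% and 2.39% of all genes were called higher. These 40 include the 11 without a read in MDA-MB-231. The list of 5 was chosen with earlier results of these data known, so the contrast with the 40 is no test. Nor are the 40 a group known to lack such forms. The 5 of them called in MDA-MB-231 have deposited loci of 6899 to 29685 bases. The 5 summed to 1149 ± 21.1 CPM in untreated HCC38 and 91.4 ± 13.3 CPM in untreated MDA-MB-231, and the other 61 members to 342 to 346 and 10.6 to 14.1 CPM. The ratio between the untreated lines was thus 12.6 for the 5 and 28.6 for the 61. The ratio of the treated to the untreated mean was 1.51 in HCC38 and 2.65 in MDA-MB-231 for the 5, and 1.40 and 2.00 for the 61.

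On the FPKM scale, tested with limma on log2(FPKM + 1), 7 members were called in HCC38 and 9 in MDA-MB-231, where 2.06% and 4.92% of all genes were called higher. Calls were both gained and lost against those on counts. H1-3 in HCC38 was among the gains (0.64, adjusted p = 0.000926). The FPKM of H2AC18 and H2AC19, uncertain as stated above, went from 337 ± 40.7 and 485 ± 68.9 in untreated HCC38 to 660 ± 85.8 and 1360 ± 449 in treated HCC38. In HCC38 the lost calls were those of H4C8 (0.83, adjusted p = 0.104) and H2BC11 (0.22, adjusted p = 0.843). In MDA-MB-231 they were those of H2BC6 (0.20, adjusted p = 0.696), H4C8 (0.43, adjusted p = 0.346), H2BC11 (0.58, adjusted p = 0.353), H2BC18 (0.07, adjusted p = 1) and H2BC21 (1.06, adjusted p = 0.0878). Of the 5 differences between the lines only that of H2AC6 was called (1.64, adjusted p = 0.0412). Those of H2BC12 (0.51, adjusted p = 0.0862), H2BC5 (1.03, adjusted p = 0.0861), H1-2 (0.23, adjusted p = 0.519) and H2BC6 (-0.17, adjusted p = 0.831) were not. H2BC6 was deposited at 0.0701 ± 0.0227 FPKM in untreated MDA-MB-231 beside 107 counts over those libraries, so its 2 deposited measures are far apart there. H1-2, at 59.2, 52.8 and 42.4 FPKM untreated and 113, 100 and 106 treated, showed the same separation as its CPM.

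Of 17 genes for the processing and decay of stem-loop mRNA, 1 was called in HCC38, lower, and 3 in MDA-MB-231, all lower. Of all genes 1.25% were called lower in HCC38 and 6.08% in MDA-MB-231. SNRPD3, an Sm protein of the U7 particle that cleaves histone pre-mRNA and also of the spliceosome, fell by 0.34 on the log2 scale in HCC38 (adjusted p = 0.0214) and by 0.71 in MDA-MB-231 (adjusted p = 2.99e-05). CPSF2, a subunit of the cleavage complex, fell by 0.31 in MDA-MB-231 (adjusted p = 0.0310), and TUT7, a terminal uridylyltransferase of histone mRNA decay, by 0.39 (adjusted p = 0.0211). SLBP stood at 73.3 ± 3.15 CPM in untreated and 79.6 ± 1.61 in treated HCC38, and at 81.4 ± 7.83 and 85.1 ± 7.63 in MDA-MB-231. None of these SLBP contrasts was called, the one between the untreated lines included (adjusted p = 0.120).

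Of 9 genes on the list for transcription of the histone loci, 0 were called in HCC38 (edgeR) and 1, CDKN1A, higher in MDA-MB-231. Of all genes 2.39% were called higher in HCC38 and 6.46% in MDA-MB-231. CDKN1A, the p21 inhibitor of CDK2, rose by 0.63 ± 0.13 on the log2 scale in MDA-MB-231 (adjusted p = 0.00629). In HCC38 its estimate was 0.54 ± 0.14 (adjusted p = 0.0572). The difference of its responses, 0.10 ± 0.20, was not called (adjusted p = 0.873). NPAT, the coactivator of these genes, stood at 68.7 ± 5.81 and 76.3 ± 7.93 CPM in untreated and treated HCC38, and at 89.4 ± 6.53 and 75.1 ± 1.69 in MDA-MB-231. Its level was higher in untreated MDA-MB-231 than in untreated HCC38 by 0.38 (adjusted p = 0.00164), where the histone genes were lower.

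Genes of S phase, which serve DNA replication, were read beside the histone genes. Of 22, 15 were called higher and 1, PCNA, lower in untreated MDA-MB-231, where 36.4% of all genes were called higher and 39.0% lower. The median log2 fold change of the 22 was 0.57, against -0.04 over all genes. With interferon-β 0 were called in HCC38, with a median of 0.13, where 2.39% of all genes were called higher and 1.25% lower. In MDA-MB-231, where 6.08% of all genes were called lower, 4 were (MCM6, POLA1 and PRIM1 among them), with a median of -0.18. The part of these S phase genes in the histone results was not tested. Of 20 tested histone chaperones, 0 were called in HCC38. In MDA-MB-231 ASF1A was called higher and HAT1, ATRX, NAP1L1, SSRP1 and MMS22L lower, where 6.46% of all genes were called higher and 6.08% lower.

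Histone variant genes outside the clusters were read as well, with 11 tested. H3-3B, an H3.3 gene, rose by 0.35 on the log2 scale in HCC38 (adjusted p = 0.0389) and gave 0.24 in MDA-MB-231 (adjusted p = 0.0948). H1-10 and H2AJ rose in MDA-MB-231 by 0.74 and 0.66, and their differences between the lines, 0.88 and 0.79, were called (adjusted p = 0.0108 and 0.0458). H2AZ2 fell by 0.41 in HCC38 (adjusted p = 0.0408) and by 0.55 in MDA-MB-231 (adjusted p = 0.00265), while H2AZ1 gave -0.02 and -0.09 and H2AX -0.28 and 0.31, none called.

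Genes with a symbol that lie between the members on chromosome 6 included the butyrophilins of the BTN2A and BTN3A families, which lie between the histone clusters. Of 56 such genes 22 were tested. In HCC38 4 were called higher with interferon-β, BTN3A1, BTN3A2, BTN3A3 and BTN2A1, and in MDA-MB-231 7 were called higher, with 0 lower in either line. Of all genes 2.39% were called higher in HCC38 and 6.46% in MDA-MB-231. In untreated MDA-MB-231 19 of the 22 were called lower and 1 higher, where 39.0% of all genes were called lower and 36.4% higher. Their median was -1.32, against -4.60 for the members and -0.04 over all genes.

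The libraries held 26660038 to 43588773 counts, and 18121 genes passed the filter. Markers were checked against the labels. EPCAM and CDH1, epithelial genes, stood at 213 and 140 CPM in untreated HCC38 and at 2.58 and 0.0242 in MDA-MB-231. Of the mesenchymal genes VIM stood at 1046 and 2944 CPM and ZEB1 at 55.8 and 138, while CDH2 went the other way, at 251 and 0.249. The oestrogen and progesterone receptor genes ESR1 and PGR did not exceed 0.0418 CPM as a mean of either untreated group, while ERBB2 stood at 163 and 63.3 CPM. Of the blood-cell markers CD3E was at 0 in all untreated libraries, PTPRC stood at 0.168 CPM in untreated HCC38 and 0.0180 in MDA-MB-231, and CD14 at 5.00 and 0.879. PTPRC rose with interferon-β in HCC38, to 0.583 CPM (1.81 on the log2 scale, adjusted p = 0.0376). Of the stromal and endothelial ones DCN stood at 0.313 and 0 CPM in the untreated lines, COL1A1 at 2626 and 14.7 and PECAM1 at 0.956 and 0.624. The part of these markers in the histone results was not tested.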

How the data were processed

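RNA-seq was measured in 12 libraries, 3 per group. Per the submitters' processing notes the authors used fastp 0.23.2, HTSeq 2.0.2, Cufflinks 2.2.1 and GRCh38.p13; on the aligner, the annotation release, and the strand and overlap settings of counting, nothing is given in the sources used here. The authors deposited whole-number read counts per gene, and FPKM per gene (fragments scaled to transcript length and library size) per the file headers. Loci were read from the FPKM tables.

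Genes were filtered with filterByExpr (minimum count 10, minimum total 15), scaled by TMM and tested with edgeR 4.0.16 (R 4.3.3), quasi-likelihood, in 1 fit over the 4 groups, with Benjamini-Hochberg adjustment over all tested genes at 0.05. The code was tested on simulated data. FPKM were tested with limma 3.58.1 with a pseudocount of 1 or 0.1, and counts also with DESeq2 1.42.0. Other alternatives were other size factors, limma-voom, no filter, each line alone, the replicate block, a term for the MDA-MB-231 sets, and each library left out. Fits within each set were added after seeing the data. Intervals and floors cover counting error only. No 2 replicates agreed within sampling noise, with chi-square per degree of freedom of at least 4.31; between the MDA-MB-231 sets it was 46.5 to 68.1 and within them 5.67 and 12.5.

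The members and gene lists were chosen with earlier results of these data known. Named with values were H1-1 to H1-6, members called with interferon-β in either line or in the difference between lines, the 2 most abundant of each core class, the 3 largest called untreated differences in each direction, the 5 polyadenylated members and SLBP, NPAT, H3-3B, H2AZ1, H2AX, and genes of the stem-loop processing and locus transcription lists called with interferon-β; other names were added after their values were seen. Some results that this rule would name are not reported here. Promoters came from RefSeq (GRCh38.p14), matched by symbol for 61 of 66 members, 54 with the deposited start.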

Additional observations from a re-analysis of the deposited data

Results flagged for a closer look

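5 members had an interferon-β response that differed between the lines by the test of the difference itself (edgeR, log2 fold change in MDA-MB-231 minus that in HCC38). The differences were 0.42 for H1-2 (adjusted p = 0.0490), 0.72 for H2BC12 (adjusted p = 0.00258), 1.04 for H2BC5 (adjusted p = 0.0124), 1.32 for H2AC6 (adjusted p = 0.0126) and 1.38 for H2BC6 (adjusted p = 0.0345). All 5 were larger in MDA-MB-231, the line with the lower untreated level of each. The H2BC12, H2BC5 and H2AC6 differences were called in all 12 fits that left out 1 library, the H2BC6 difference in 5 and the H1-2 difference in 1. On both FPKM scales the H2AC6 difference was called and the other 4 were not, with adjusted p = 0.0862 for H2BC12 and 0.0861 for H2BC5 on log2(FPKM + 1) and 0.0959 and 0.0969 on log2(FPKM + 0.1).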

How the results depend on the processing

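The counts of called members were 5 in HCC38, 10 in MDA-MB-231, 5 for the difference and 44 between the untreated lines. In HCC38 DESeq2 gave 10, limma-voom 9, no filter 10 of 64 tested, HCC38 alone 17 of 44 and a term for the MDA-MB-231 sets 14, all higher, where 4.06%, 2.46%, 1.95%, 6.57% and 5.81% of all genes were called higher. In MDA-MB-231 the line alone gave 6 of 18 tested, where 3.62% of all genes were called higher. For the difference log2(FPKM + 1) gave 3 (1 positive, 2 negative), where 1.25% of all genes were positive and 0.607% negative. On log2(FPKM + 0.1) 2 were called (1 each way), with no share of all genes given. The median difference was 0.61 within the set numbered 1 and 2 and -0.17 within the set numbered 4 and 5, unread members included. Leaving out 1 library gave 4 to 8 in HCC38 (8 without untreated MDA-MB-231 replicate 3), 9 to 13 in MDA-MB-231, 43 to 45 between the untreated lines, and 3 to 6 for the difference. The difference count was 3 without treated HCC38 replicate 1 or 3, any untreated HCC38 library, treated MDA-MB-231 replicate 3 or untreated MDA-MB-231 replicate 1. No share of all genes is given for the fits that left out 1 library, so their counts describe the members only. Directions reversed for H2BC18 in HCC38 (-0.40 with log2(FPKM + 1), -0.53 with log2(FPKM + 0.1)), for the H2BC6 difference (-0.17 with log2(FPKM + 1)), and for the H4C8 difference (-0.40 and -0.21 with those 2 scales, and -0.033 within the set numbered 1 and 2). The cause was not tested. Of the other gene and median values compared, 750 kept their direction and side of the threshold, 70 lost a call and 41 gained one, while 7 medians moved.

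To look for pairing, the deviations of libraries from their group were correlated, and not their expression levels. Between untreated and treated libraries of the same replicate number these deviations correlated at 0.04, -0.12 and 0.02 in HCC38. In MDA-MB-231 they correlated at 0.27, -0.26 and 0.25. These values did not single out pairs by the replicate numbers of the titles, but so few values cannot exclude pairing. By the numbers in the deposited names, which 2 MDA-MB-231 pairs share, the correlations were 0.27 and 0.38. Libraries of the same set with different name numbers gave 0.32 and 0.25, so the name numbers did not single out pairs either. With the replicate block 5, 11, 4 and 45 members were called, and the H1-2 difference of 0.42 was lost (adjusted p = 0.0708). No share of all genes is given for that fit either. Depth limits the rare members, since 3 counts over the untreated MDA-MB-231 libraries equal 0.0292 CPM.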
